A study of Mus musculus with 2 samples.

Results

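Heat shock chaperones were examined in 24 mouse pseudoblastocysts, which are embryos with a cavity that were collected without scoring whether they held an inner cell mass. The 10 members are Hspa1a, Hspa1b, Dnajb1, Hsph1 and Hsp90aa1, termed inducible here, and Hspa8, Hsp90ab1, Hspd1, Hspe1 and Hspa5, termed constitutive here. They are 10 of the 52366 genes counted, and were chosen by name when the high Hspa1b count of 4CB embryos relative to 2CB embryos was already known. That contrast is therefore given as a description, with no p, and its calls are read as nothing about the members.

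The study asked how the developmental potential of a single blastomere changes as the parental embryo divides. Oocytes of B6D2F1 females aged 8 to 9 weeks were fertilized in vitro with sperm of ICR males aged 15 to 20 weeks, and the zona pellucida was removed with Actinase E. Zygotes without a zona (1C, 5 h after insemination) and single blastomeres of the 2-cell stage (2CB, 24 h), the 4-cell stage (4CB, 48 h) and the 8-cell stage (8CB, 48 h) were cultured to 96 h. All 4 groups of 6 embryos thus shared the cross, the enzyme treatment and the culture. The zona-free zygote was handled without being divided, so it is a reference for zona loss and not for the intact embryo, and no intact embryo is among the samples used here. RNA of each embryo was barcoded and read with CEL-Seq2, which tags the 3′ ends of polyadenylated transcripts and counts unique molecular identifiers (UMIs). According to the labels the embryos were sequenced in 2 library pools of 12, termed the 1C/8CB pool and the 2CB/4CB pool here, so that pool and this division of the stages cannot be told apart.

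Total UMIs ranged from 70941 to 1507471 per embryo, and the medians were 244312 (1C), 519932 (2CB), 216325 (4CB) and 313283 (8CB). All 7 trophectoderm, 5 primitive endoderm and 5 epiblast markers checked had UMIs, although Pou5f1, the gene of OCT4 in the inner cell mass, had only 33 in all. Among 6 cumulus and granulosa cell markers, Foxl2, Fshr, Amh, Cyp19a1 and Lhcgr were at 0, and Star had 339 UMIs in 23 embryos. These are whole embryos, so fewer cells of a type and less RNA per cell cannot be told apart. The labels do not say whether embryos of a stage came from separate litters, and p-values measure only the spread between these embryos.

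Chaperones hold unfolded proteins and let them fold. HSP70 proteins bind exposed hydrophobic stretches in a cycle driven by ATP, with J-domain proteins such as DNAJB1 delivering clients and HSP110 proteins such as HSPH1 exchanging the nucleotide, and HSP90 completes the maturation of many kinases and receptors. When unfolded protein accumulates, heat shock factor 1 (HSF1) is released, forms trimers and binds heat shock elements in promoters. In the mouse embryo, Hspa1a and Hspa1b are known as early products of the activated zygotic genome.

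Heat shock elements are inverted repeats of the unit GAA, and the letters before the transcription start of the members are shown because the inducible HSP70 genes moved together below. Of the 10 members, 7 had entries in the RefSeq promoter table for GRCm38.p6, which gave the sequences that follow. Capitals mark GAANNTTC or TTCNNGAA, which are both read on either strand since each is its own reverse complement. The 250 bases before the start of Hspa1a (chr17:34972157-34972406, minus strand) and of Hspa1b (chr17:34959239-34959488, minus strand) were the same at 247 positions, and each held 1 such match, beginning 104 bases before the start.
Hspa1a: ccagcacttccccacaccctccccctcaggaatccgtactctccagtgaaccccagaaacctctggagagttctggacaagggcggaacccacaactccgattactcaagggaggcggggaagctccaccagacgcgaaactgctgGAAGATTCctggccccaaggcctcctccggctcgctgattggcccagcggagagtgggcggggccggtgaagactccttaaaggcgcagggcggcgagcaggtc
Hspa1b: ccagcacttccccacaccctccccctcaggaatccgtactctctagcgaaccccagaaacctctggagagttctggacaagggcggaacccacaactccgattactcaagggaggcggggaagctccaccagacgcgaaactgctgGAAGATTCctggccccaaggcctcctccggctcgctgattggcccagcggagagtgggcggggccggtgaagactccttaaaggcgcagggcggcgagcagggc

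For the other members 30 bases around the match are enough to show it. Hsph1 (chr5:149636351-149636380, minus strand) had 1 match. Hspe1 (chr1:55088053-55088082, plus strand), which lies head to head with Hspd1, had overlapping matches that together form the longer elements GAANNTTCNNGAA and TTCNNGAANNTTC. The window of Hspa5 (chr2:34772020-34772049, plus strand) had no such match, and its capitals mark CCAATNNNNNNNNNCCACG, the endoplasmic reticulum stress element.
Hsph1: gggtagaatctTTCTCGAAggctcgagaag
Hspe1: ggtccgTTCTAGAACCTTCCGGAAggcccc
Hspa5: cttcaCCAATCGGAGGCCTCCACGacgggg
Neither entry of Dnajb1 held any of these letters. The short match is common, being present upstream of 14.5% of the 27025 genes in the table, whereas the longer element was found for 0.514% and the endoplasmic reticulum stress element, searched on both strands, for 0.13%. A match of letters describes the window and is not evidence of binding.

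Hspa1a and Hspa1b encode the stress-inducible cytosolic HSP70 and lie close together on chromosome 17. In 4CB embryos Hspa1a (ENSMUSG00000091971.3, chr17:34969190-34972156 on GRCm38) had 94, 54, 202, 515, 2 and 80 UMIs in replicates 1 to 6, which is 341, 345, 403, 456, 15.1 and 527 CPM (UMIs per 1000000 UMIs of the embryo). The lowest, median and highest values were 0, 0 and 13.6 CPM (1C), 0, 5.70 and 19.9 CPM (2CB), and 0, 0 and 2.80 CPM (8CB). Thus 5 of the 6 4CB embryos stood far above every other embryo, and the fifth 4CB replicate fell among the 2CB embryos.

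Hspa1b (ENSMUSG00000090877.3, chr17:34956436-34959238) was high in the same 5 embryos. Its 4CB embryos had 76, 55, 210, 586, 0 and 73 UMIs, or 275, 351, 419, 518, 0 and 481 CPM. The lowest, median and highest values elsewhere were 0, 11.2 and 35.3 CPM (1C), 0, 7.31 and 31.2 CPM (2CB), and 0, 19.6 and 28.2 CPM (8CB). Again 5 of the 6 4CB embryos lay above the highest of the other 18 embryos, while 1C, 2CB and 8CB overlapped one another. Hspa1a had UMIs in 14 of 24 embryos and Hspa1b in 18.

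The sum of both genes averaged 688 ± 363 CPM (SD, n = 6) in 4CB, against 16.4 ± 18.3 (1C), 19.2 ± 17.4 (2CB) and 17.2 ± 10.7 (8CB). Without the fifth replicate the 4CB mean was 823 ± 170 CPM (n = 5). In the 5 high 4CB embryos the ratio of Hspa1a to Hspa1b UMIs was between 0.879 and 1.24, so that both contributed nearly equally. At the low counts of 8CB and 1C the balance was different: Hspa1b had 24 and 25 UMIs over the 6 embryos of each stage, and Hspa1a had 1 and 6. Both transcripts share 99.1% of the bases over a stretch of 2200, but the last 770 bases of Hspa1a and 603 of Hspa1b lie outside it, and no other annotated gene matched the last 500 bases of either at 90% identity over 100 bases. Gm20481, annotated on the opposite strand over 2225 bases of Hspa1a, had 0 UMIs.

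**Figure D1:**
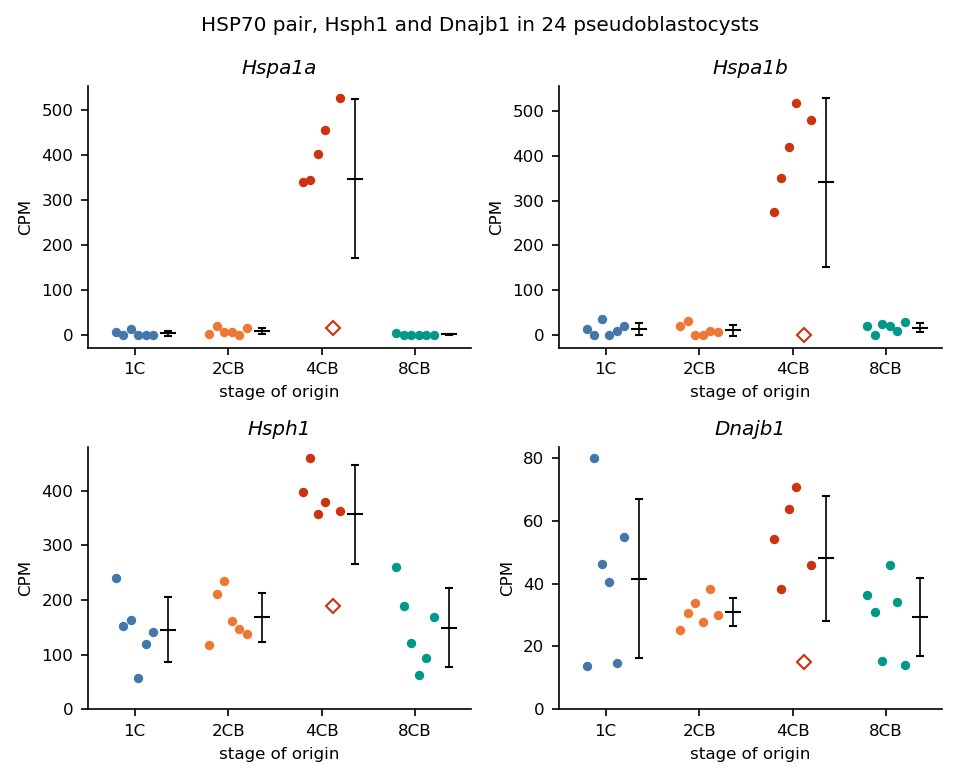
CPM of Hspa1a, Hspa1b, Hsph1 and Dnajb1 in each of 24 pseudoblastocysts by stage of origin (6 per stage; points are embryos, the open diamond is 4CB replicate 5, and black marks are the mean ± SD). In 4CB, 5 embryos lie between 341 and 527 CPM for Hspa1a and between 275 and 518 for Hspa1b, and replicate 5 lies at 15.1 and 0.

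Hsph1, an HSP110 nucleotide exchange factor of HSP70, followed the same embryos at a smaller amplitude. Hsph1 (ENSMUSG00000029657.15, chr5:149614287-149636376) was at 399, 459, 357, 380, 188 and 362 CPM in 4CB replicates 1 to 6. The lowest, median and highest values were 56.6, 147 and 240 CPM (1C), 117, 154 and 235 CPM (2CB), and 62.2, 145 and 261 CPM (8CB). The same 5 4CB embryos exceeded all others and replicate 5 lay inside the range of every other stage. Mean levels were 2.13-fold higher in 4CB than in 2CB, against 42.7-fold for Hspa1a and 30.9-fold for Hspa1b. The last 2 ratios rest on 42 and 66 UMIs in 2CB and are imprecise: with counts thinned to the smallest total they were 19.7 and 72.4, and with 1 embryo left out they ranged from 35.6 to 60.0 and from 25.8 to 48.8, both highest without 2CB replicate 2. For Hsph1 the ratio stayed between 2.01 and 2.33.

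Dnajb1, a J-domain cochaperone of HSP70 (ENSMUSG00000005483.10, chr8:83608193-83612653), was expressed at a low level. The 4CB embryos had 54.4, 38.3, 63.8, 70.8, 15.1 and 46.1 CPM, and the 2CB embryos lay between 25.4 and 38.3 CPM. All 4CB embryos except replicate 5 were thus above the 2CB embryos, by a narrow margin for replicate 2. The 1C embryos, between 13.7 and 80.2 CPM, and the 8CB embryos, between 14.1 and 45.9 CPM, overlapped both. The mean ratio of 4CB to 2CB was 1.55. Only 384 UMIs were counted for Dnajb1 over all embryos, and in 4CB replicate 5 its 15.1 CPM rest on 2 UMIs of 7.53 CPM each.

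Replicate 5 of 4CB differed from the other 4CB embryos in these members and not in every member. Had its Hspa1a level been that of the lowest other 4CB embryo, 45.2 UMIs would have been counted at its depth, where 2 were found; for Hspa1b the figures were 36.6 and 0, for Hsph1 47.4 and 25, and for Dnajb1 5.08 and 2. A count of 0 in its 132725 UMIs allows up to 22.6 CPM. It lay within the range of the other 4CB embryos for Hsp90aa1 (1153 CPM), Hspa8 (181 CPM), Hsp90ab1 (2833 CPM), Hspd1 (45.2 CPM) and Hspa5 (573 CPM), and below it for Hspe1 (2200 CPM against 2457 to 3433 CPM). Its total was the lowest of 4CB, where the other embryos had 151769 to 1130360 UMIs. Its mean correlation with the other 4CB embryos, 0.759, was inside the range of the 6 embryos (0.739 to 0.800). Its summed trophectoderm markers, 4860 CPM, were also within the 4CB range of 2471 to 5107 CPM. Its summed primitive endoderm markers, 776 CPM, were the lowest of 4CB, where the highest was 1479 CPM, with 0 UMIs for Sox17 and Pdgfra and 1 for Gata4. For the rest of that list replicate 5 had 294 CPM of Gata6 and 475 CPM of Dab2, where the means of all 6 4CB embryos were 348 and 541 CPM. Its summed epiblast markers, 362 CPM, lay inside the 4CB range of 177 to 514 CPM, and Star was at 166 CPM, the highest of 4CB, where the lowest was 23.9 CPM. The part of depth and of these markers in the result was not tested.

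**Figure D2:**
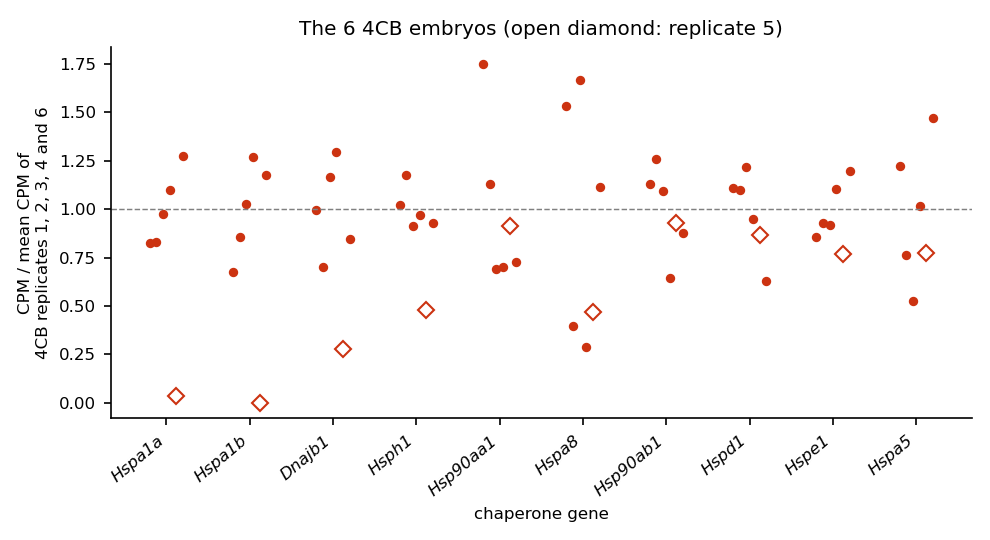
Level of each chaperone in the 6 4CB embryos, as CPM divided by the mean CPM of replicates 1, 2, 3, 4 and 6 (dashed line, ratio of 1). Replicate 5 (open diamond) is below all 5 others for Hspa1a, Hspa1b, Dnajb1, Hsph1 and Hspe1, and among them for the remaining 5 genes.

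Hsp90aa1 encodes the inducible cytosolic HSP90 and Hsp90ab1 its constitutive partner, and neither followed the Hspa1 genes. Hsp90aa1 (ENSMUSG00000021270.13, chr12:110690605-110702728) had lowest, median and highest values of 1075, 1757 and 3803 CPM (1C), 316, 1007 and 1652 CPM (2CB), 875, 1038 and 2214 CPM (4CB), and 753, 1301 and 2199 CPM (8CB). All 4 stages overlapped. Its mean in 4CB, 1247 ± 520 CPM, exceeded that in 2CB, 979 ± 445 CPM, by less than either SD. Across the 12 2CB and 4CB embryos its correlation with Hspa1a was 0.08, against 0.93 for Hspa1b and 0.90 for Hsph1 with Hspa1a. These correlations describe log2 CPM over 12 embryos that share a library pool and differ in depth, and the stage difference itself enters them.

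Hsp90ab1 (ENSMUSG00000023944.14, chr17:45567775-45573271) divided the stages instead by pool. Its lowest and highest values were 4424 and 16562 CPM (1C) and 3533 and 14251 CPM (8CB), but 1284 and 3744 CPM (2CB) and 1957 and 3828 CPM (4CB). Every 2CB and 4CB embryo lay below the lowest 1C embryo, and 10 of the 12 also lay below the lowest 8CB embryo. Mean levels were 8138 CPM (1C), 6667 (8CB), 3010 (4CB) and 2764 (2CB). Adjacent means in this order differed by less than the SD of the higher stage, although 5 of the 6 4CB embryos lay below the lowest 8CB embryo.

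Relative to its partner, the inducible HSP90 gene supplied a moderately varying share. Hsp90aa1 made up 16.4% to 22.5% of the UMIs of both in 1C, 19.7% to 34.6% (2CB), 20.8% to 39.1% (4CB) and 13.4% to 24.5% (8CB), and all ranges overlapped. For the cytosolic HSP70 genes the share of Hspa1a and Hspa1b in the sum with Hspa8 was 51.2%, 82.0%, 56.2%, 89.9%, 7.69% and 70.2% in 4CB replicates 1 to 6. Exact binomial 95% intervals ran from 45.7% to 56.7% in replicate 1 and from 0.946% to 25.1% in replicate 5, which rests on 26 UMIs. The share was at most 8.14% (1C), 33.9% (2CB) and 12.1% (8CB). By UMIs counted, the inducible genes were thus the larger part of the cytosolic HSP70 sum in 5 4CB embryos and the smaller part in all other embryos. In replicate 1 of 4CB the margin was narrow, and its interval also holds shares at which they are the smaller part. The intervals cover counting error only. Transcripts of 10 other annotated genes matched the 3′ end of Hspa8 and had 53 UMIs together, against 2755 for Hspa8. A part of the Hspa8 count, and so of these shares, is therefore uncertain.

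**Figure D3:**
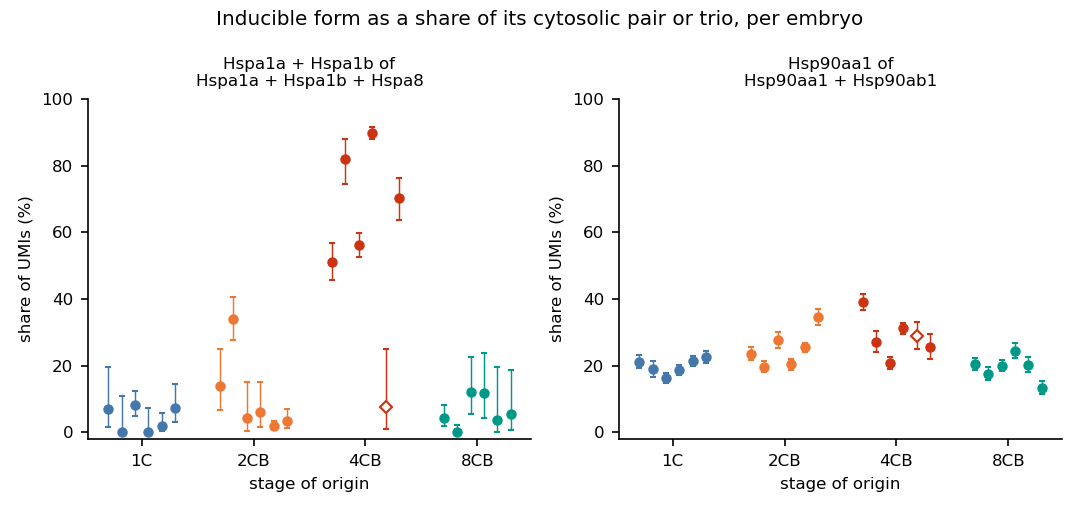
Left, UMIs of Hspa1a and Hspa1b as a percentage of those with Hspa8. Right, UMIs of Hsp90aa1 as a percentage of those with Hsp90ab1. Points are embryos with exact 95% binomial intervals, and the open diamond is 4CB replicate 5. On the left 5 4CB embryos lie between 51.2% and 89.9%, above all others, and on the right the 4 stages overlap.

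Hspa8, the constitutive cytosolic HSP70 (ENSMUSG00000015656.17, chr9:40800984-40810087), varied between embryos of each stage more than between stages. Its mean was 357 CPM (1C), 248 (2CB), 350 (4CB) and 338 (8CB). With all 24 embryos in order the widest step lay between 268 and 388 CPM, with 13 embryos below it, the lowest at 92.9 CPM, and 11 above it, the highest at 640 CPM. The 11 were 3 1C, 2 2CB, 3 4CB and 3 8CB embryos, so that every stage had embryos on both sides. The lowest and highest 4CB embryos were replicate 4, with 124 UMIs among 1130360 (110 CPM), and replicate 3, with 321 among 501642 (640 CPM). The coefficient of variation between embryos of a stage, as edgeR estimated it, was 0.553 for Hspa8, higher than for 82.1% of the 5940 genes tested. That of Hspa1b was 0.849, higher than for 97.4%, and replicate 5 of 4CB enters it.

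Hspd1 and Hspe1 encode the mitochondrial chaperonin HSP60 and its lid HSP10, and are transcribed away from each other from a shared promoter region. Hspe1 (ENSMUSG00000073676.4, chr1:55088132-55091307) had 30263 UMIs, from 751 to 5032 CPM, whereas Hspd1 (ENSMUSG00000025980.14, chr1:55077835-55088243) had 376, from 0 to 72.8 CPM. Per kilobase of transcript the means over all embryos were 2055 CPM for Hspe1 and 14.7 CPM for Hspd1. The annotated pseudogene Hspd1-ps3, whose transcript matched the 3′ end of Hspd1, had 101 UMIs of its own, so a part of the Hspd1 count is uncertain. Hspd1 was at 18.9 ± 10.2 CPM in 8CB (SD, n = 6), and each 4CB embryo, at 32.9 to 63.8 CPM, lay above the highest 8CB value. However, 8CB replicate 6 had 0 UMIs for Hspd1 among 70941, which allows up to 42.3 CPM, so this embryo is not shown to lie below all of 4CB. Hspe1 overlapped among all stages, with means of 3239 CPM (1C), 2692 (2CB), 2759 (4CB) and 3424 (8CB).

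Hspa5 encodes BiP, the HSP70 of the endoplasmic reticulum (ENSMUSG00000026864.13, chr2:34771970-34777547). It ranged from 158 to 1934 CPM with means of 802 CPM (1C), 698 (2CB), 714 (4CB) and 900 (8CB), which differ by less than the spread within any stage. Per kilobase of the transcript, the mean levels over all embryos were 1716 CPM for Hsp90ab1, 362 for Hsp90aa1, 184 for Hspa5, 75.1 for Hspa8 and 11.7 for Dnajb1. CEL-Seq2 reads 3′ ends, so length scaling can understate long transcripts, and the order of Hspe1 and Hsp90ab1 depends on it: unscaled, Hsp90ab1 averaged 5145 CPM and Hspe1 3028. The place of the Hspa1 genes depends on the stage. In 4CB, Hspa1a was at 117 CPM per kilobase, Hspa1b at 122 and Hsph1 at 49.2, whereas in the other stages Hsph1 was at 20.02 to 23.13 and both Hspa1 genes were at 0.157 to 5.96. The order in 4CB also depends on the scaling. Unscaled, the 4CB means were close, at 348 CPM for Hspa1a, 341 for Hspa1b and 358 for Hsph1.

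**Figure D4:**
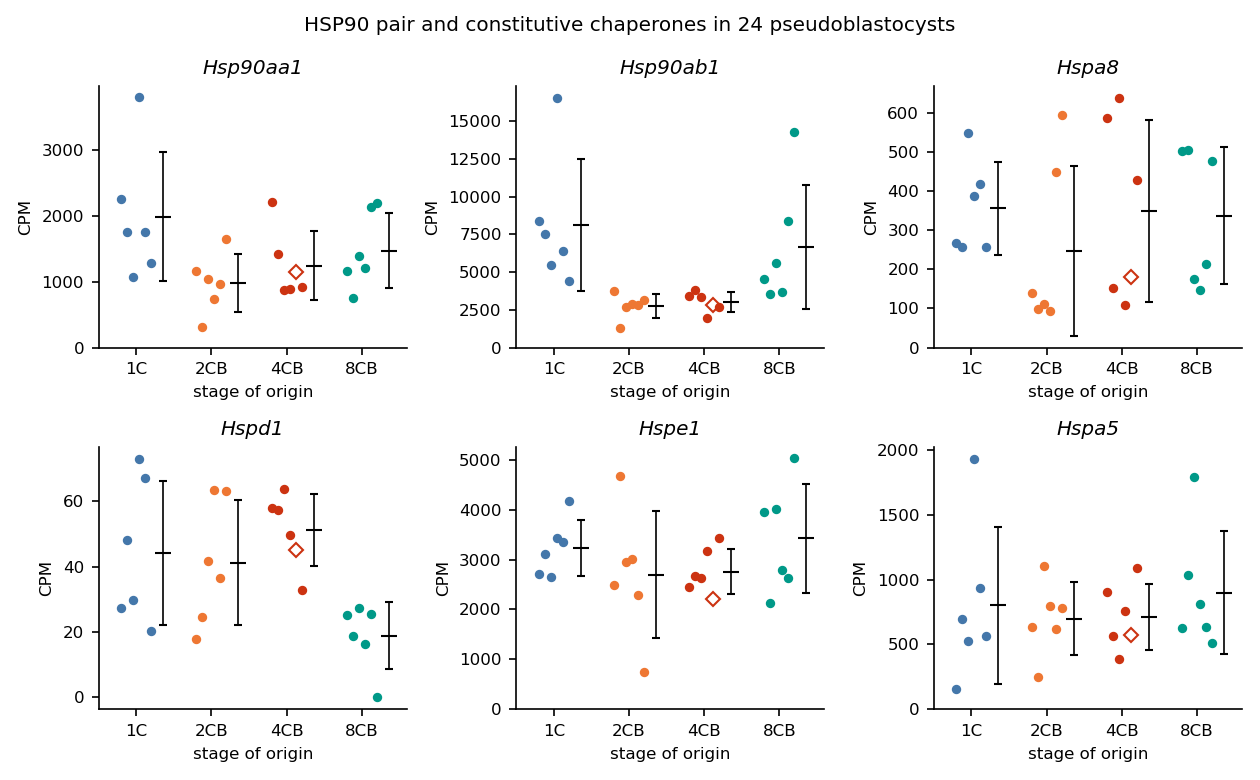
CPM of Hsp90aa1 and of the 5 constitutive chaperones in each of 24 pseudoblastocysts by stage of origin (points are embryos, the open diamond is 4CB replicate 5, black marks are the mean ± SD, n = 6). Hsp90ab1 lies at 1284 to 3828 CPM in the 2CB/4CB pool and at 3533 to 16562 CPM in the 1C/8CB pool, and Hspa8 is spread widely in every stage.

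As a whole, the 10 members took 6938 to 8335 CPM (2CB), 7203 to 10735 (4CB), 10585 to 26296 (1C) and 8187 to 22681 (8CB). Most of these UMIs were from Hsp90ab1 and Hspe1. The 5 inducible members were 19.0% to 30.6% of all member UMIs in 4CB, 8.76% to 25.7% (2CB), 12.6% to 18.0% (1C) and 10.6% to 16.0% (8CB). Each 4CB embryo was above all 1C and 8CB embryos, and the 2CB range overlapped all. Leaving out both HSP90 genes, the inducible share was 21.1% to 25.9% in 5 4CB embryos, 6.79% in replicate 5, and at most 8.00% in any other embryo.

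The first tested comparison set the 2CB/4CB pool against the 1C/8CB pool, to ask whether the chaperones moved with this division of the stages. Counts were tested with edgeR's quasi-likelihood test over the 9 members that passed the filter on low counts, at a Benjamini-Hochberg adjusted p below 0.1 over 5940 genes. Of these, 5 were called, 3 higher and 2 lower in 2CB and 4CB, where 55.3% of all genes tested were called, 31.3% higher and 24% lower. The calls of Hspa1b and Hsph1 among them rest on 4CB levels that the choice of members used, so nothing is read from this count. Their median log2 fold change was -0.25, against 0.12 for all genes. Hspa1a did not pass the filter, since it was high in 5 embryos only, and Hspa1b passed mostly through 4CB.

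Hsp90ab1 fell by 1.36 on the log2 scale (SE 0.23, edgeR adjusted p = 1.72e-05), and Hsp90aa1 fell by 0.64 (SE 0.24, edgeR adjusted p = 0.0281). Both HSP90 genes were thus lower in 2CB and 4CB. Summing Hsp90aa1 with its retrocopies Gm5844 and Gm12346, which had 1799 and 1094 UMIs against 10298, and Hsp90ab1 with Gm6368, which had 878 against 34217, kept both calls. Hsph1 was higher by 0.70 (SE 0.22), which came from 4CB: the log2 difference to 1C was 1.26 (SE 0.32) for 4CB and 0.20 (SE 0.31) for 2CB. Hspa1b was higher by 1.99 (SE 0.56), again with 4CB 4.38 (SE 0.77) above 1C and 2CB -0.35 (SE 0.81) from it. No p is given for either, because both differences rest on the 4CB embryos that were known when the members were chosen.

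Hspd1 was higher by 0.60 (SE 0.29) with an edgeR adjusted p = 0.0887, a call that ended without the filter (adjusted p = 0.306) and in 19 of 24 fits that left out 1 embryo. The other 4 members did not pass, with log2 differences of 0.13 (SE 0.29) for Dnajb1, -0.25 (SE 0.33) for Hspa8, -0.31 (SE 0.20) for Hspe1 and -0.29 (SE 0.28) for Hspa5. Trophectoderm markers moved with this division: their sum was 384 to 993 CPM in the 1C/8CB pool and 2354 to 5107 CPM in the 2CB/4CB pool, with all 7 markers detected and Elf5 at 0 in every 1C embryo. In 2CB and 4CB most of this sum came from Krt18, Gata3, Elf5 and Eomes, and 6 of the 7 had higher means in 2CB and 4CB than in 1C and 8CB. Tfap2c went the other way, with means of 416 CPM (1C), 297 (2CB), 200 (4CB) and 380 (8CB). Markers of the other lineages moved with the pools too. Means in 1C, 2CB, 4CB and 8CB were 5.504, 119, 83.8 and 0 CPM for Sox17 and 14.9, 88.3, 70.8 and 23.0 CPM for Pdgfra, both of the primitive endoderm. Gata6, of the same list, went the other way, at 501, 274, 348 and 463 CPM. Among epiblast markers the means were 34.1, 168, 131 and 35.9 CPM for Sox2, whereas Nanog was lower in 2CB and 4CB, at 383, 196, 141 and 530 CPM. The sums of the 5 primitive endoderm markers (631 to 1100 CPM in the 1C/8CB pool, 776 to 1582 in the 2CB/4CB pool) and of the 5 epiblast markers (268 to 1421 and 177 to 745 CPM) overlapped between the pools. Their part in the result was not tested.

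8CB and 1C embryos came from 1 pool and share no embryo with the contrast used in the choice of members. None of the 9 members was called (0% of 5940 genes were called by edgeR, 550 had an unadjusted p under 0.05, and DESeq2 called 43, none of them a member). The lowest adjusted p among members was that of Hspd1, with a log2 difference of -1.02 (SE 0.44, edgeR adjusted p = 0.464). Hspa1b differed by 0.06 (SE 0.92), Hsph1 by 0.05 (SE 0.32), Dnajb1 by -0.39 (SE 0.43), Hsp90aa1 by -0.42 (SE 0.34) and Hsp90ab1 by -0.28 (SE 0.32). The misses do not show that the stages were alike, since the SEs of the members ran from 0.28 to 0.92.

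For 4CB against 2CB, the contrast known when the members were chosen, the fitted log2 differences were 4.73 (SE 0.73) for Hspa1b, 1.06 (SE 0.30) for Hsph1, 0.66 (SE 0.39) for Dnajb1 and 0.33 (SE 0.34) for Hsp90aa1. The fit without a filter gave 5.09 (SE 0.47) for Hspa1a and, without 4CB replicate 5, 5.33 (SE 0.48). In these 2 fits Hspa1b was at 4.57 (SE 0.45) and 4.82 (SE 0.46), so their SEs cannot be set against those of the filtered fit. Among constitutive members the differences in the filtered fit were 0.49 (SE 0.46) for Hspa8, 0.31 (SE 0.38) for Hspd1, 0.09 (SE 0.32) for Hsp90ab1, 0.00 (SE 0.28) for Hspe1 and 0.00 (SE 0.40) for Hspa5. Over all genes 0.0337% were called higher in this contrast, and nothing about the members is read from it. Leaving out 1 embryo moved the difference of Hspa1b between 4.497 and 5.557, the latter without 2CB replicate 2, and that of Hspa8 between 0.23 and 0.97, the latter without 2CB replicate 6. The median was 0.86 over the 4 inducible members fitted and 0.09 over the 5 constitutive ones, and -0.01 over all genes.

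**Figure D5:**
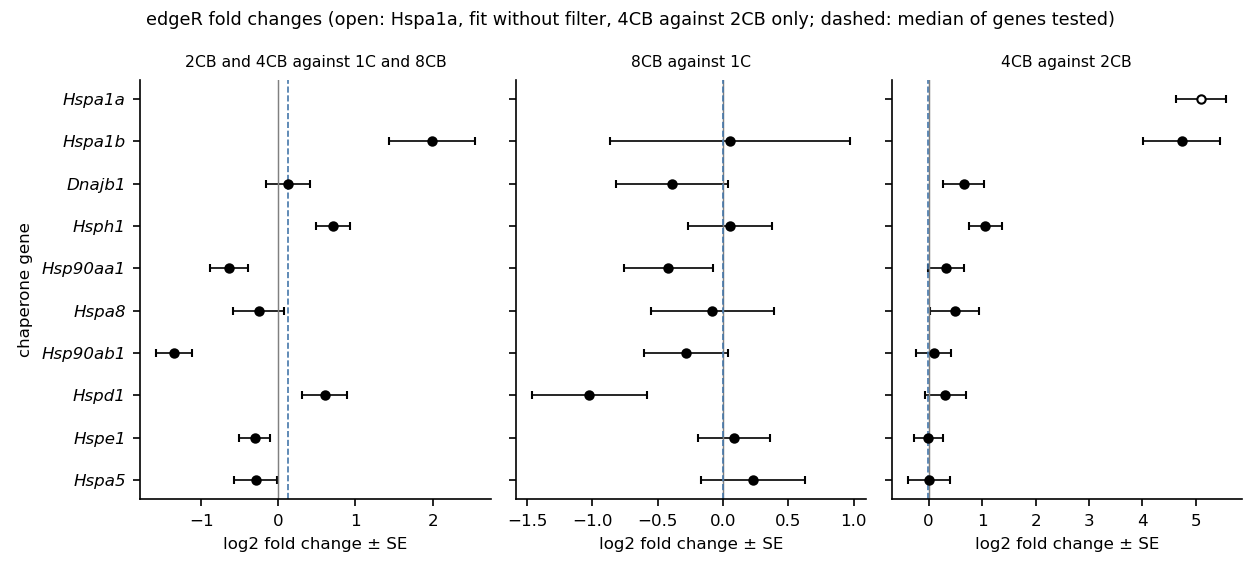
Fitted log2 fold changes ± SE of the chaperones in 3 comparisons (edgeR, 24 embryos). Filled points are the fit with a filter on low counts, and the open point is Hspa1a in the fit without it, shown for 4CB against 2CB only. Dashed lines are the median of 5940 genes. Hspa1b is at 4.73 in the panel of 4CB against 2CB and at 0.06 in that of 8CB against 1C, and Hsp90ab1 is at -1.36 for the 2CB/4CB pool against the 1C/8CB pool.

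The levels of other proteostasis genes place the members among their relatives. Of 10 heat shock factors and small heat shock proteins, 7 were tested between the pools, and 3 rose in the 2CB/4CB pool and 1 fell. The share called, 57.1%, was near the 55.3% of all genes. The median log2 difference of the 7 was 0.47, against 0.12 over all genes tested. Cryab (log2 difference 3.42) and Hspb1 (2.85), small heat shock proteins that hold unfolded clients, and Hsbp1 (0.47), which binds HSF1, were higher. The HSP70 cofactor Bag3 fell by 0.94. Hsf1 itself was not called and averaged 36.6 CPM (1C), 35.4 (2CB), 56.5 (4CB) and 40.2 (8CB).

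Of 26 cytosolic cochaperones and relatives, 15 were tested, 2 rose and 7 fell, with a median of -0.31. These are 13.3% and 46.7% of the 15, where 31.3% of all genes were called higher and 24% lower, and the total, 60%, was near that of all genes. The HSP110 relative Hspa4l rose by 3.78 and the HSP90 immunophilin Fkbp4 by 1.16. Stip1, which links HSP70 to HSP90, fell by 1.75, Dnaja1 fell by 0.99 and Dnajb6 fell by 0.97. Stip1 thus had the same direction as both HSP90 genes. Its means were 3094 CPM (1C), 900 (2CB), 1039 (4CB) and 3257 (8CB).

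Of 14 subunits of the chaperonin CCT and of prefoldin, all were tested (median -0.17), with Cct4 (0.77) and Pfdn1 (0.57) higher and Pfdn5 (-0.74), Cct7 (-0.74) and Cct8 (-0.63) lower. These 5 are 35.7% of the 14, below the 55.3% of all genes called. Among 8 of 13 mitochondrial proteostasis genes tested (median -0.07), the disaggregase Clpb (1.38) and the protease Lonp1 (0.53) were higher and Clpx (-1.65), Grpel1 (-1.19) and Yme1l1 (-0.47) lower, which is 62.5% of the 8 against 55.3% of all genes. Hspa9, the mitochondrial HSP70, was not called and averaged 360 CPM (1C), 414 (2CB), 408 (4CB) and 513 (8CB). Of 17 of 21 endoplasmic reticulum stress genes tested, 0 rose and 5 fell (median -0.30). The 5 are 29.4% of the 17, where 24% of all genes were called lower and 31.3% higher. Among them were the BiP cochaperone Dnajb9 (-3.61), Hyou1 (-0.86) and Pdia3 (-0.80). Dnajb9 averaged 136 CPM (1C), 10.4 (2CB), 14.0 (4CB) and 171 (8CB), whereas Hspa5 did not pass the test.

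Among immediate early and damage response genes, 8 of 21 were tested (median 0.28), and Gadd45g (4.82) and Klf6 (3.33) were higher and Ddit4 (-2.89) and Hmox1 (-1.89), the heme oxygenase, lower, which is 50% of the 8 against 55.3% of all genes. In 8CB against 1C, 0 genes of these 6 lists were called by edgeR. For 4CB against 2CB their values are given as a description. The median log2 differences of the 6 lists lay between -0.06 and 0.47, and that of the cytosolic cochaperones was -0.01, with 6 of 15 above 0. The genes named next were picked after seeing that they were high in 4CB, and others were lower there, such as Pfdn5 (-1.03) and Mt1 (-0.95). Hspb8 averaged 191 CPM (4CB) and 59.4 (2CB), with ranges of 30.1 to 507 and 6.01 to 155 that overlap. Hspa4l averaged 204 and 74.2 CPM, with ranges of 22.6 to 474 and 12.4 to 262 that overlap as well. Jun averaged 148 and 21.5 CPM (46.1 to 335 and 5.08 to 43.3), and Dusp1 22.4 and 2.64 CPM (7.25 to 32.9 and 0 to 5.74), and for these the 2 stages did not overlap. The gap was narrow for Jun, and Dusp1 had only 67 UMIs in all and did not pass the filter. How many of all genes separate the 2 stages in this way was not counted, so nothing is read from it. Replicate 5 of 4CB was the lowest 4CB embryo for Hspb8, at 30.1 CPM, for Hspa4l, at 22.6 CPM, and for Dnaja1, at 173 CPM, but not for Jun, Dusp1, Bag3 or Hspb1. The HSF1 targets Dnaja1, Bag3 and Hspb1 overlapped between 2CB and 4CB, at 311 to 1238 and 173 to 1867 CPM, 54.2 to 159 and 89.3 to 183 CPM, and 64.1 to 1096 and 255 to 736 CPM respectively.

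The pattern of summed Hspa1a and Hspa1b over the 12 2CB and 4CB embryos was compared with that of 5926 other tested genes by Pearson's correlation of log2 CPM, as a description. The highest values were those of Phlda1 (0.91), Rassf4 (0.82), Adss (0.80), Kpna3 (0.79) and Map7d2 (0.79). Phlda1, a pleckstrin homology protein, averaged 259 CPM (4CB), 60.7 (2CB), 79.8 (1C) and 50.8 (8CB). Since these genes were picked for this correlation, low values in 4CB replicate 5 restate the choice: Phlda1 was at 97.9 CPM there, the lowest of 4CB, and Rassf4 and Map7d2 were at 0. The latter pair did not follow the Hspa1 genes across all 4 stages, as their means in 1C and 8CB were between 115 and 142 CPM.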

How the data were processed

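Of the experiments in the study, the single-embryo RNA sequencing of 24 pseudoblastocysts was analysed. The deposited values are whole-number UMI counts per gene and embryo. The authors aligned CEL-Seq2 reads to GRCm38 with HISAT2 2.2.6, counted UMIs with HTSeq 0.6.1 and later tested with DESeq2 1.10.1; duplicates with a common UMI were merged into 1 consensus read. The tag length, whether position also defined a group, the annotation release and the strand setting are not given in the sources used here. Counts reached 53029 for a gene in an embryo and 7050 for a member, more than a tag of a few bases can tell apart within 1 gene, so 1 molecule may have been counted more than once, and UMI counts are not strictly molecules and counting intervals may be too narrow. A further 24 columns had no listed sample and were not used. Symbols came from GENCODE M21 (51719 of 52366 genes).

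Counts were fitted with edgeR 4.0.16 (R 4.3.3): TMM factors of 0.928 to 1.07, filterByExpr (5940 genes, 9 of 10 members), 1 mean per stage over 24 embryos, quasi-likelihood F test, adjusted p below 0.1. Levels are CPM of total UMIs, and correlations were taken on log2 CPM (prior count, 2). Transcripts were compared with blastn 2.17.0. Totals of 70941 to 1507471 UMIs and a common coefficient of variation of 0.442 limit precision. The fits were first tested on simulated counts with known changes.

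The members and the gene lists were chosen with earlier results of these data known. All 10 members are named; of other lists, up to 3 called genes each way with the largest fold change; and the 5 genes most correlated with the Hspa1 sum. Hsf1, Hspa9, the list genes named for 4CB against 2CB and the order of Hspa8 were chosen after their values were seen. Replicate numbers were checked for pairing: over 36 same-numbered embryo combinations the deviations had a mean correlation of -0.016 (-0.248 to 0.224), so embryos were treated as unpaired. Alternatives were DESeq2 1.42.0, its size factors in edgeR, 2 other filters, thinning, adjusted p below 0.05, only the embryos compared, the replicate block, Hspa1a and Hspa1b summed, and each embryo left out. The retrocopy sums, the Hspa1a fit without both a filter and 4CB replicate 5, the 4CB levels without replicate 5 and the settings for the ratios of 4CB to 2CB means were added after seeing the data.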

Additional observations from a re-analysis of the deposited data

Results flagged for a closer look

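Each member's CPM was examined in each stage for an embryo that stood apart from the other 5, by the gap to its nearest neighbour as a share of the whole range. Of 40 groups of 6 embryos, 3 passed Dixon's 95% critical value for 6 samples. Chance flags about 1 in 20 groups of continuous values, a rate that does not apply to groups near 0 UMIs or to values already known, so the number of groups is not set against it. For Hspa1a in 4CB the lowest embryo was replicate 5, at 15.1 CPM, with a gap of 0.636 of the range. This restates the level described above and is no independent test of it, since the 4CB levels were known when the members were chosen. Hspa1b, Hsph1 and Dnajb1 were also lowest in that embryo, but their gaps did not reach the critical value. For Hspa1a in 8CB the highest embryo was replicate 1, with a gap of 1 because it held the only UMI of that stage and the other 5 were at 0, which fixes the gap. For Hsp90ab1 in 1C replicate 4 stood at 16562 CPM with a gap of 0.672, and the other 1C embryos lay between 4424 and 8412 CPM.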

How the results depend on the processing

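For the 2CB/4CB pool against the 1C/8CB pool, 3284 genes and 5 members were called; without a filter 5525 genes were called, and after thinning to the smallest total 1195 genes and 3 members, of fewer tested. Leaving out 1 embryo gave 3256 to 3420 genes and 4 to 7 members. For 8CB against 1C the 0 genes called became 43 with DESeq2 and 104 without a filter, and 0 to 3 without 1 embryo, with 0 members in each. For 4CB against 2CB, where the choice of members makes the calls uninformative about them, the 2 genes called became 10 with DESeq2, 48 without a filter (2 members, as Hspa1a is then tested), 1 with the replicate block, 0 after thinning (0 members), and 1 to 6 genes and 1 to 2 members without 1 embryo. The samples share only a number; with the replicate block, no pairing being shown, Hspd1 lost its call between the pools (adjusted p = 0.116). Hspd1 was also lost with a filter that asked for 5 UMIs in 12 embryos (0.119) and with the retrocopies summed (0.110). Uncalled log2 differences turned sign for 8CB against 1C: Hspa1b with the replicate block (-0.0060) and summed with Hspa1a (-0.20), Hsph1 with the block (-0.0051) and Hspa8 after thinning (0.27). Without 1 embryo, 8CB against 1C ranged from -0.16 to 0.63 for Hspa1b, -0.20 to 0.23 for Hsph1, -0.26 to 0.076 for Hspa8, -0.62 to 0.023 for Hsp90ab1, -0.023 to 0.19 for Hspe1 and -0.12 to 0.69 for Hspa5, and Dnajb1 ranged from -0.0087 to 0.19 between the pools. Hspe1 was called there without 2CB replicate 2 (-0.47) and without 8CB replicate 2. Other scalings of the levels moved 2 of 90 stage means by over 1 SD, both after thinning (Hspa1a, to 16.5 CPM, and Dnajb1, to 21.2 CPM, in 2CB). The causes were not tested. Low totals limit Hspa1a, Hspd1 and Dnajb1, at under 1000 UMIs each. They also limit Hspa1b outside 4CB, since 1C and 8CB held only 25 and 24 of its 1115 UMIs.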
